A study of Homo sapiens with 40 samples.

Results

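Vilanterol + RNO is the arm of this experiment in which a phosphodiesterase inhibitor was added to an agonist at a concentration labelled as maximal, and it was compared with vilanterol alone over all genes. The comparison uses 8 of the 40 libraries, 4 of vilanterol + RNO and 4 of vilanterol, chosen by their labels, and 12591 of the 15788 genes in the table had a mean of at least 1 TPM (a level scaled for transcript length and library depth) and were tested. All cells were BEAS-2B, an immortalised human bronchial epithelial line, grown to confluence, kept overnight without serum and then treated for 2 h. The groups used were vilanterol 100 nM + RNO 1 uM, vilanterol 100 nM, RNO 1 uM, the EP4 receptor agonist ONO-AE1-329 (here ONO) at 0.1 nM, 1 nM and 1 uM, each ONO concentration + RNO 1 uM, and vehicle, with 4 libraries each. Nothing in the labels says that the 4 libraries of a group came from separate cultures, so p-values measure the spread between these libraries, which may be technical. The question was whether blocking PDE4 adds anything to a maximal vilanterol response after 2 h.

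Vilanterol is a long-acting bronchodilator whose receptor drives adenylyl cyclase to make the second messenger cAMP. cAMP activates protein kinase A, which phosphorylates the transcription factor CREB and switches on a set of early genes. PDE4 enzymes break cAMP down, and RNO, roflumilast N-oxide, inhibits them, which prolongs the life of cAMP made by a receptor. EP4 couples to the same messenger.

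Of 12591 genes, 0 were called higher and 0 lower in vilanterol + RNO than in vilanterol cells by limma, a linear model fitted across all genes (Benjamini-Hochberg adjusted p under 0.05; 0% called, smallest adjusted p = 1.00). At an unadjusted p under 0.05 there were 180 genes, 1.43% of those tested. That is less than the share of 0.05 expected by chance if no gene changed. This fit did not pair libraries by replicate number, although same-numbered libraries deviated together from their group means. The number under 0.05 was 298 without replicate 1 of vilanterol + RNO, 294 with library weights and 585 with the replicate number as a block. None was called in any of these fits. With the block and only the 8 libraries compared, the number was 970 and 1 gene was called, MIR4664, described further on. On the log2(TPM + 1) scale, which understates changes of low genes, the median fold change was -0.00025, the median absolute change was 0.032, and the standard deviation over genes was 0.078. The 95% confidence interval of the change lay wholly inside 1.5-fold in either direction for 12304 genes, 97.7% of those tested, and inside 2-fold for 12499, 99.3%. For RNO against vehicle the share inside 1.5-fold was 97%. For RNO added to 0.1 nM, 1 nM and 1 uM ONO it was 96.9%, 97.3% and 97.1%. This share therefore hardly sets the comparison on vilanterol apart from the others. The 2 groups of 4 libraries did not overlap for 132 genes, 1.05%, of which 55 were higher and 77 lower with RNO. In all 8 fits that left out 1 of the 8 libraries the count called was also 0.

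**Figure D1:**
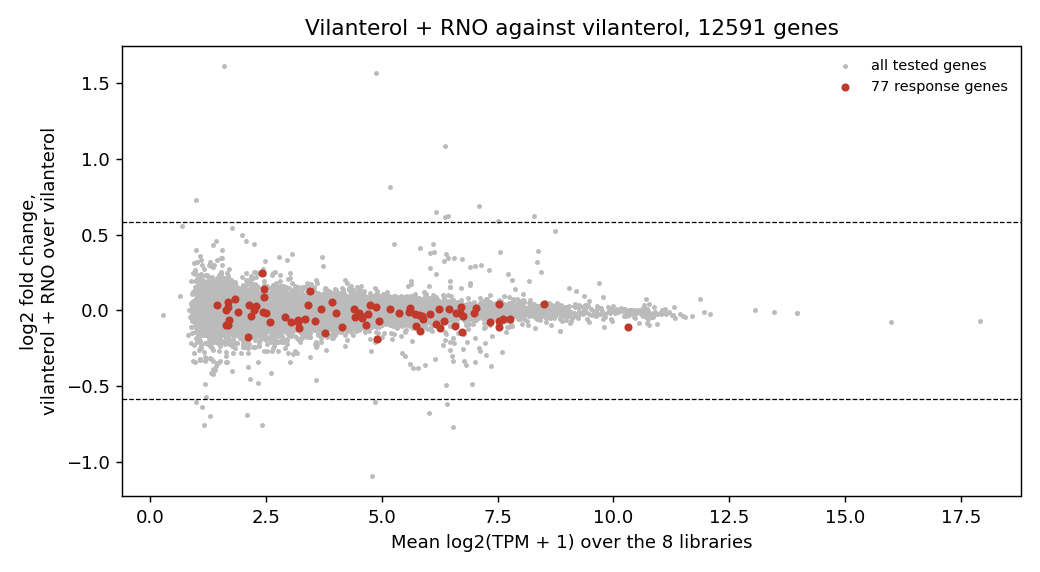
Log2 fold change of vilanterol + RNO over vilanterol (TPM + 1) against the mean log2(TPM + 1) over the 8 libraries for 12591 genes. Each point is a gene, the 77 response genes described in the text are red, and the dashed lines mark 1.5-fold. The 77 red points lie between -0.19 and 0.25.

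This absence of calls was found in cells whose transcriptome had changed widely. Against vehicle, vilanterol + RNO raised 1259 genes and lowered 1063 (18.4% of tested genes called), and vilanterol raised 1220 and lowered 1003 (17.7% called). Both comparisons share the vehicle libraries. With the replicate block the counts called were 4029 for vilanterol + RNO and 3931 for vilanterol.

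None of the 10 genes that vilanterol raised most was called between vilanterol + RNO and vilanterol (limma adjusted p = 1.00 for each). NR4A3, an orphan nuclear receptor and early cAMP target, had 71.9, 72.5, 61 and 70.2 TPM in the 4 vilanterol + RNO libraries, 76.5, 75.7, 64.2 and 76.6 TPM in the 4 vilanterol libraries, and 0.98, 2.07, 1.09 and 1.26 TPM in vehicle cells. The 2 vilanterol groups overlapped, with replicate 3 lowest in each, and every library of both lay far above vehicle. NR4A3 thus stood 51.1-fold above vehicle with vilanterol + RNO and 54.3-fold with vilanterol, and its log2 fold change between them was -0.087 (95% confidence interval -0.45 to 0.27). Its relative NR4A2 had 30.9, 25.2, 17.6 and 22.6 TPM with vilanterol + RNO and 32.2, 26.9, 18.3 and 25.7 TPM with vilanterol, a log2 fold change of -0.095 (-0.45 to 0.26). Replicate 1 was the highest and replicate 3 the lowest in both groups. For NR4A3 and NR4A2 the library with RNO was the lower one at all 4 replicate numbers. The third member, NR4A1, averaged 91.8 ± 14.4 TPM with vilanterol + RNO, 98.6 ± 15.6 TPM with vilanterol and 17.4 ± 4.57 TPM with vehicle (SD, n = 4 each).

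The promoters of NR4A3 and of DUSP1 and PPM1D, which are described further on, are shown as examples. For each, the change made by RNO was called different between vilanterol and another condition. The calls of DUSP1 and PPM1D held under only 16 and 11 of 27 alternative settings. Other genes called in this way are not shown, so these examples do not give the motif share among such genes. CREB binds the motif TGACGTCA or the shorter TGACG, which reads CGTCA on the opposite strand. Each sequence is the 250 bases before the RefSeq transcription start on GRCh38.p14, 5′ to 3′ on the gene's strand, with each TGACG or CGTCA in capitals. They lie at chr9:99821635-99821884 (plus strand), chr5:172771196-172771445 (minus strand) and chr17:60599943-60600192 (plus strand).
NR4A3: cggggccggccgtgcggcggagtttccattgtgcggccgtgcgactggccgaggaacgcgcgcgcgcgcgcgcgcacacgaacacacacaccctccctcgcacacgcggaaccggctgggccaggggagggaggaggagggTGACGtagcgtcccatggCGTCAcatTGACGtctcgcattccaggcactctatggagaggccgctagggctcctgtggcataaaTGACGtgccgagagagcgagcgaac
DUSP1: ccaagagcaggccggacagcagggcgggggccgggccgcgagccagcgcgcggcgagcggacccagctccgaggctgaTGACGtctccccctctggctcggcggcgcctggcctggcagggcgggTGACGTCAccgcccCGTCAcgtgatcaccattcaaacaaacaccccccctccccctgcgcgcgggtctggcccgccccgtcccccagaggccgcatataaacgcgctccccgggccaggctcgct
PPM1D: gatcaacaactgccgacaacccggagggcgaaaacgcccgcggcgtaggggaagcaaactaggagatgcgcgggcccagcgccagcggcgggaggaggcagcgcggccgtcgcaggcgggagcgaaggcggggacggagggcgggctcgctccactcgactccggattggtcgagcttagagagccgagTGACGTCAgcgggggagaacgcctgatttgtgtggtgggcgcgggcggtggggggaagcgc
NR4A3 held 4 short motifs and no full one. DUSP1 held 4 short motifs, of which an overlapping pair formed 1 full motif. PPM1D held 2, an overlapping pair that formed 1 full motif. Of all 35116 promoter windows of this length in the table, 1.65% held the full motif and 21.2% a short motif on either strand. Of the 93 windows of the 57 response genes found there by symbol, the shares were 3.23% and 33.3%. A match is a description of the letters and not a bound site.

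ZNF331, a zinc-finger gene, had 112, 107, 82.2 and 99.8 TPM with vilanterol + RNO and 123, 118, 89.9 and 110.4 TPM with vilanterol. The groups overlapped, although each vilanterol + RNO library was below the vilanterol library of the same replicate number, and the log2 fold change was -0.14 (-0.42 to 0.14). SGK1, a kinase that regulates ion channels, had 297, 223, 169 and 182 TPM with vilanterol + RNO and 309.6, 235, 174 and 189 TPM with vilanterol, with replicate 1 highest in both. RGS2, which dampens signalling by Gq-coupled receptors, had 108, 62.7, 54.5 and 74.6 TPM with vilanterol + RNO and 110.0, 73.7, 58.1 and 81.4 TPM with vilanterol. These 2 genes spread more between replicate numbers than between groups, both were lower with RNO at all 4 replicate numbers, and their intervals were -0.44 to 0.33 for SGK1 and -0.57 to 0.33 for RGS2. LINC00473, a long noncoding RNA induced through CREB, had 107, 103, 99.7 and 109.9 TPM with vilanterol + RNO and 107, 101, 93.5 and 112 TPM with vilanterol, against 9.46 TPM on average in vehicle cells. TM4SF1, a membrane protein of the tetraspanin-like L6 family, had 373, 348, 384 and 352 TPM with vilanterol + RNO and 371, 336, 359.9 and 351 TPM with vilanterol. For LINC00473 and TM4SF1 the mean was slightly higher with RNO and the groups overlapped.

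IL6, a cytokine gene with a CREB site in its promoter, had 77.7, 52.2, 38.9 and 50.1 TPM with vilanterol + RNO and 87.8, 58, 43.4 and 52.9 TPM with vilanterol, against 4.48 ± 0.301 TPM in vehicle cells (SD, n = 4). Replicate 1 was highest in both vilanterol groups, and the log2 fold change between them was -0.14 (-0.57 to 0.29). CRISPLD2, a secreted protein that restrains endotoxin responses, averaged 25 ± 2.88 TPM with vilanterol + RNO and 25.4 ± 1.53 TPM with vilanterol (SD, n = 4 each). The entry LOC102724428/SIK1, which joins SIK1 with a near-identical copy, had 253, 181, 135 and 162 TPM with vilanterol + RNO and 254, 193, 145 and 171 TPM with vilanterol, with replicate 1 highest in both. SIK1 is a kinase that turns CREB coactivators off, and the deposited value does not separate the 2 copies. IL6 and LOC102724428/SIK1 were lower with RNO at all 4 replicate numbers.

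**Figure D2:**
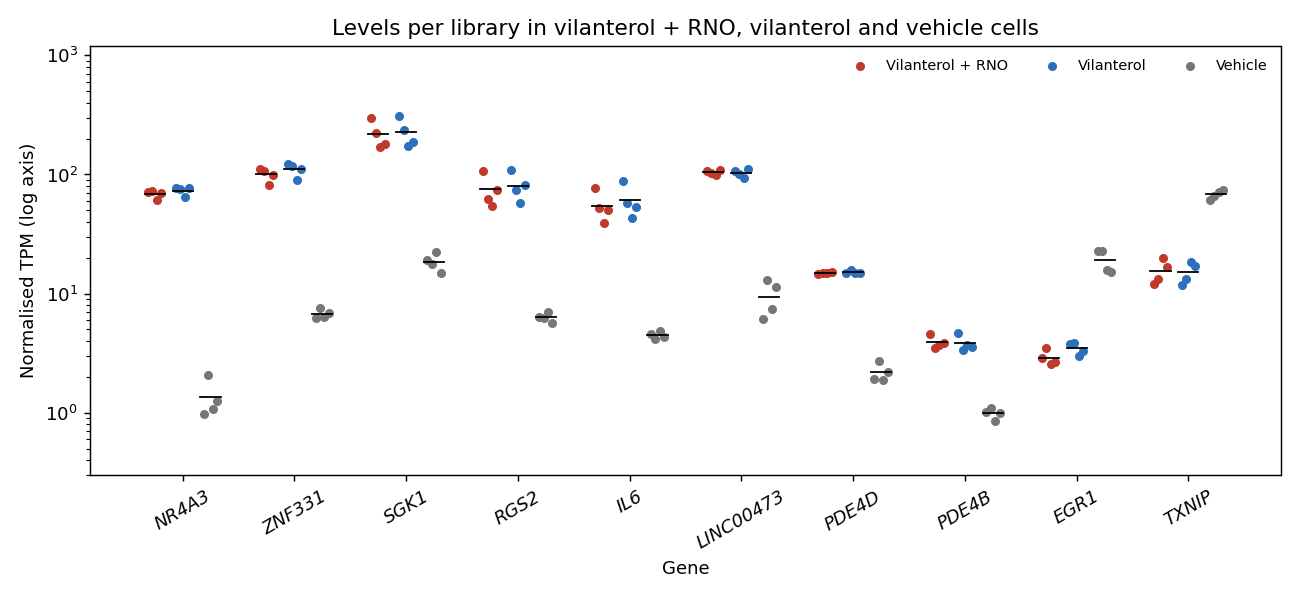
Normalised TPM (log axis) of 10 genes in each library of vilanterol + RNO (red), vilanterol (blue) and vehicle (grey). Points are libraries in the order of replicates 1 to 4 and lines are means of 4. The red and blue points overlap for each gene, and NR4A3 averaged 68.9 TPM with vilanterol + RNO, 73.3 TPM with vilanterol and 1.35 TPM with vehicle.

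The 10 genes that vilanterol lowered most were not called between vilanterol + RNO and vilanterol either. EGR1, a growth-factor-responsive transcription factor, had 2.88, 3.49, 2.56 and 2.67 TPM with vilanterol + RNO and 3.75, 3.84, 3.02 and 3.32 TPM with vilanterol, against 19 ± 4.2 TPM in vehicle cells (SD, n = 4). The vilanterol + RNO library was the lower one at all 4 replicate numbers, the groups overlapped, and the log2 fold change was -0.20 (-0.52 to 0.11). TXNIP, an inhibitor of thioredoxin and glucose uptake, had 12, 13.2, 19.8 and 16.6 TPM with vilanterol + RNO and 11.9, 13.2, 18.6 and 16.9 TPM with vilanterol, against 68 ± 5.85 TPM in vehicle cells. The order of the 4 replicates was the same in both groups. FOSL1, an AP-1 subunit, averaged 34.4 ± 5.84 TPM with vilanterol + RNO, 39.4 ± 6.76 TPM with vilanterol and 141 ± 15.9 TPM with vehicle. JUN, another AP-1 subunit, averaged 36.4 ± 1.56 TPM with vilanterol + RNO, 37.5 ± 2.7 TPM with vilanterol and 86.2 ± 5.3 TPM with vehicle. KLF10, a TGF-beta-inducible repressor, averaged 13.6 ± 2.87 TPM with vilanterol + RNO, 15.5 ± 3.27 TPM with vilanterol and 61.4 ± 21.4 TPM with vehicle (SD, n = 4 for each mean). RGS4, DUSP6, HES1 and IER3 also fell with vilanterol, and their log2 fold changes with RNO added were 0.086, 0.068, -0.034 and -0.12. PGBD3 completed the 10 genes lowered most. It was listed at or near 0 in 3 libraries of each vilanterol group and at 1.1 TPM and 1.27 TPM in replicate 2 of vilanterol + RNO and of vilanterol.

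The targets of the inhibitor themselves were compared next. PDE4D had 14.7, 14.9, 15 and 15.1 TPM with vilanterol + RNO and 14.9, 15.7, 14.9 and 15 TPM with vilanterol, against 2.183 ± 0.401 TPM in vehicle cells (SD, n = 4). All 8 vilanterol libraries lay within a narrow band, at 6.83-fold of vehicle with RNO and 6.92-fold without. PDE4B had 4.57, 3.46, 3.74 and 3.86 TPM with vilanterol + RNO and 4.65, 3.39, 3.69 and 3.53 TPM with vilanterol, against 0.99 ± 0.104 TPM in vehicle cells, and replicate 1 was highest in both. PDE4A averaged 1.7 ± 0.273 TPM with vilanterol + RNO, 1.88 ± 0.14 TPM with vilanterol and 1.71 ± 0.149 TPM with vehicle. PDE4C, at 0.49 TPM with vilanterol + RNO and 0.5003 TPM with vilanterol, was under the filter and was not tested. PTGER4, which encodes EP4, averaged 1.14 ± 0.236 TPM with vilanterol + RNO, 1.06 ± 0.137 TPM with vilanterol and 1.57 ± 0.0977 TPM with vehicle. RNO alone raised PDE4B by 0.54 (limma adjusted p = 0.00441) and PDE4D by 0.48 (adjusted p = 0.0223) on the log2 scale over vehicle, whereas on top of vilanterol the changes were 0.030 and -0.017. The step, meaning the log2 fold change made by adding RNO, was compared between vilanterol and vehicle. The difference was -0.51 for PDE4B (limma adjusted p = 0.504, 0.0165 with the replicate block) and -0.49 for PDE4D (adjusted p = 0.585).

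Lists of genes gave no call either. They were written from general knowledge but chosen with earlier results of these data known. Their counts, here and in the next paragraph, are therefore descriptions. Of 23 tested genes that cAMP and CREB are known to switch on, 19 were higher with vilanterol + RNO than with vehicle (10% of all tested genes called higher) and 19 with vilanterol than with vehicle (9.69% called higher). Between these 2 groups none of the 23 was called, 4 had an estimate above 0, and the median was -0.087, beside -0.00025 over all tested genes. Adding RNO to 0.1 nM, 1 nM and 1 uM ONO raised 11, 9 and 7 of the same 23 (0.659%, 0.222% and 0.532% of all tested genes called higher), with medians of 0.59, 0.45 and 0.49. The step on vilanterol was lower than that on 0.1 nM ONO for 8 of the 23 (0.183% of all tested genes called lower). Of 22 genes for cAMP synthesis, breakdown and receptors, 13 were above 0 and the median was 0.0051. Of 22 genes of the protein kinase A, EPAC and CREB machinery, 13 were above 0 and the median was 0.011. Among 10 tested cytokines and chemokines the median was -0.0065, with LIF lowest at -0.17 and CCL2 highest at 0.087. The 22 negative regulators of inflammatory signalling, the 13 MAPK phosphatases and Sprouty genes and the 17 glucocorticoid-responsive genes had medians of -0.013, -0.0079 and -0.023. DUSP1, a MAP kinase phosphatase that limits inflammatory signalling, averaged 210.4 ± 29.95 TPM with vilanterol + RNO, 218 ± 34.8 TPM with vilanterol and 63.6 ± 8.77 TPM with vehicle (SD, n = 4 each). CD200, a membrane protein that restrains myeloid cells, averaged 14.6 ± 0.928 TPM with vilanterol + RNO, 14 ± 0.715 TPM with vilanterol and 1.62 ± 0.322 TPM with vehicle. The 24 ribosomal protein genes had a median of -0.015, and the 29 cell cycle genes had a median of -0.021.

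Immediate early genes gave no call between vilanterol + RNO and vilanterol. Of 24 tested, 22 had an estimate below 0, with a median of -0.11, beside 50.4% of all tested genes below 0. Their mean log2(TPM + 1) was 4.80, 4.77, 4.57 and 4.69 in the 4 vilanterol + RNO libraries and 4.95, 4.88, 4.61 and 4.83 in the 4 vilanterol libraries. The groups overlapped, but at each of the 4 replicate numbers the library with RNO was the lower one, by 0.16, 0.11, 0.040 and 0.14. FOSB, an AP-1 subunit, had the lowest estimate and had 12, 12.4, 11.6 and 10.9 TPM with vilanterol + RNO and 16.6, 15, 12.1 and 13.6 TPM with vilanterol, a log2 fold change of -0.26 (-0.62 to 0.097). Its groups overlapped through replicate 3 of the vilanterol group. Against vehicle, 8 of the 24 were higher and 10 lower with vilanterol + RNO, beside 10% and 8.44% of all tested genes. With vilanterol, 10 were higher and 9 lower than vehicle, beside 9.69% and 7.97% of all tested genes. RNO alone, compared with vehicle, gave 20 of 24 estimates below 0 with a median of -0.26, and 2 of them were called lower (0.135% of tested genes called lower, 0.238% in either direction). Adding RNO to ONO gave 10 of 24 estimates below 0 at 0.1 nM (median 0.087), 12 at 1 nM (median 0.000023) and 9 at 1 uM (median 0.13).

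The size of the shared cAMP response was followed through 77 genes that were called and at least 2-fold higher with 1 uM ONO than with vehicle, a choice made on libraries other than the 8 compared. Their mean log2(TPM + 1) was 4.67, 4.56, 4.50 and 4.56 in the vilanterol + RNO libraries and 4.72, 4.59, 4.51 and 4.599 in the vilanterol libraries, against 2.75 ± 0.070 in vehicle cells (SD, n = 4). The 2 vilanterol groups overlapped, and at all 4 replicate numbers the library with RNO was the lower one, by 0.046, 0.022, 0.0064 and 0.039. At all 4 numbers the library with RNO also had the lower column total. With libraries rescaled to equal totals, the difference between the 2 group means was -0.0049, beside -0.028 without rescaling. With libraries rescaled to equal medians it was -0.027, so the 2 scalings differed. The level was 4.47 ± 0.056 with 1 uM ONO + RNO and 4.05 ± 0.094 with 1 uM ONO. It was 3.68 ± 0.11 with 1 nM ONO + RNO and 3.24 ± 0.045 with 1 nM ONO. It was 3.38 ± 0.057 with 0.1 nM ONO + RNO and 2.79 ± 0.086 with 0.1 nM ONO (SD, n = 4 for each). RNO alone stood at 2.90 ± 0.12. The difference made by RNO was therefore -0.028 on vilanterol, 0.15 on vehicle, 0.59 on 0.1 nM ONO, 0.44 on 1 nM ONO and 0.41 on 1 uM ONO. On vehicle it was 0.039, 0.10, 0.33 and 0.12 at replicate numbers 1 to 4, largest at replicate 3. The highest of the 10 group means was that of vilanterol for 52 of the 77 genes, that of vilanterol + RNO for 24 and that of 1 uM ONO + RNO for 1.

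**Figure D3:**
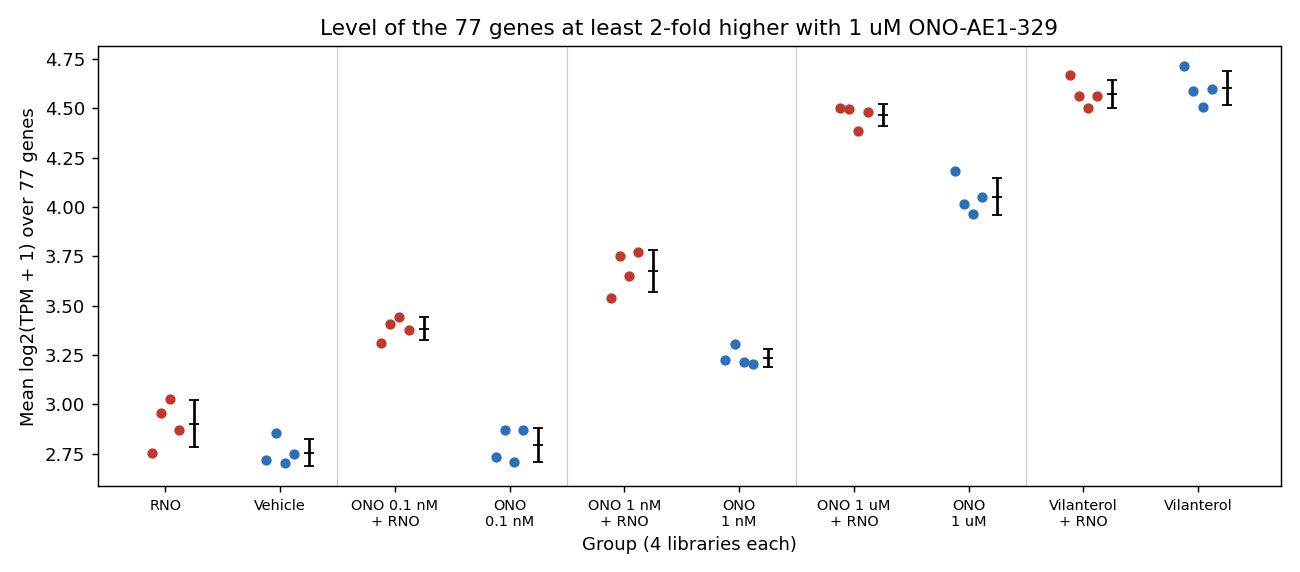
Mean log2(TPM + 1) over the 77 genes in each of the 40 libraries, by group, with + RNO groups in red and the matching groups without RNO in blue. Bars show the mean and SD of 4 libraries. The vilanterol + RNO libraries lie between 4.50 and 4.67 and the vilanterol libraries between 4.51 and 4.72, above all ONO libraries without RNO.

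With RNO on vilanterol, 25 of the 77 genes had an estimate above 0, none was called, the median was -0.025 and the range was -0.19 to 0.25. The 95% confidence interval lay inside 1.5-fold for 76 of them, the exception, named after its values were seen, being SHISA2 (-0.60 to 0.45). With RNO on vehicle 63 of the 77 estimates were above 0 and 3 were called higher (0.103% of tested genes called higher), with a median of 0.10. The vehicle libraries also served to choose the genes, which favours low vehicle values, so this step is a description. With RNO on 0.1 nM ONO all 77 estimates were above 0 and 42 were called higher (0.659% of all tested genes called higher, 0.723% in either direction), with a median of 0.49. On 1 nM ONO all 77 were above 0 and 20 were called higher (0.222% of tested genes called higher, 0.238% in either direction), with a median of 0.38. On 1 uM ONO all 77 were above 0 and 23 were called higher (0.532% of tested genes called higher, 0.604% in either direction), with a median of 0.37; here the 1 uM ONO libraries also served to choose the genes. The 83 genes that RNO raised on 0.1 nM ONO had a median of -0.0012 on vilanterol with 41 above 0, and all 83 intervals lay inside 1.5-fold. The 67 genes that RNO raised on 1 uM ONO had a median of -0.026 on vilanterol with 24 above 0, and all 67 intervals lay inside 1.5-fold. The 12 genes called and at least 2-fold lower with 1 uM ONO than with vehicle had a median step of -0.045 on vilanterol, with 3 above 0 and 9 of 12 intervals inside 1.5-fold. On 1 uM ONO their median was -0.070, with 3 above 0 and 7 intervals inside 1.5-fold. It was -0.18 on 0.1 nM ONO, -0.29 on 1 nM ONO and -0.54 on vehicle, with none above 0 in these conditions. The vehicle and 1 uM ONO libraries also served to choose these 12 genes. That choice favours high vehicle and low 1 uM ONO values, so the steps on vehicle and on 1 uM ONO are descriptions.

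**Figure D4:**
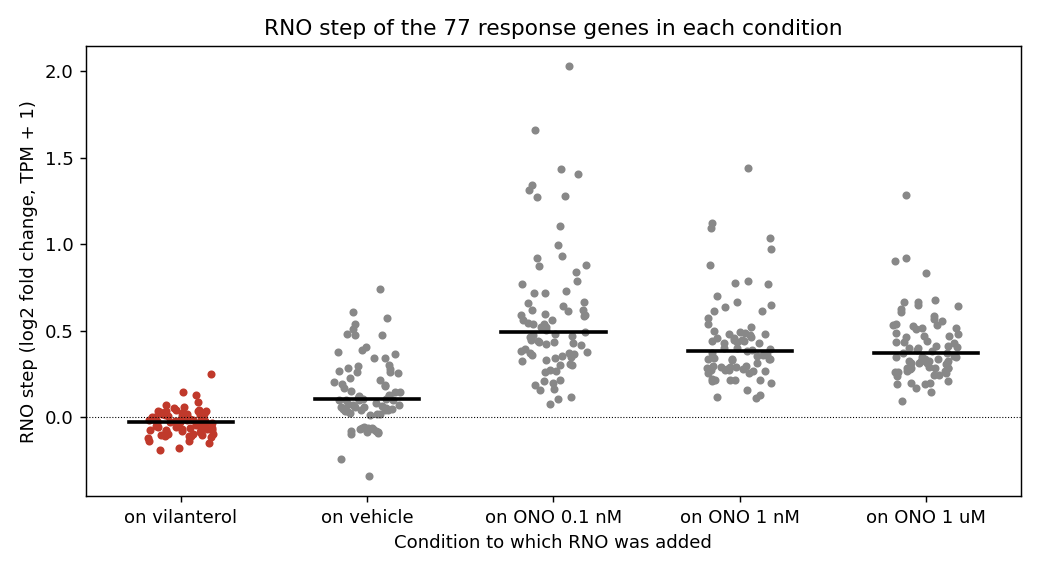
Log2 fold change (TPM + 1) made by adding RNO for each of the 77 response genes, on vilanterol (red) and on vehicle or ONO (grey). Bars are medians, which were -0.025 on vilanterol, 0.10 on vehicle, 0.49 on 0.1 nM ONO, 0.38 on 1 nM ONO and 0.37 on 1 uM ONO.

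Whether the step made by RNO differed between vilanterol and the other conditions was tested gene by gene as a difference of steps. Against the step on 0.1 nM ONO, 23 genes had a lower and 1 a higher step on vilanterol (0.191% called; 104 with the replicate block). NR4A3 differed by -2.11 (standard error 0.25, limma adjusted p = 5.25e-06), since RNO changed it by -0.087 on vilanterol and by 2.03 on 0.1 nM ONO. In TPM, NR4A3 averaged 9.62 ± 1.33 with 0.1 nM ONO + RNO and 1.66 ± 0.679 with 0.1 nM ONO (SD, n = 4 each). TM4SF1 differed by -1.27 (standard error 0.14, adjusted p = 3.00e-06) and averaged 122 ± 23 TPM with 0.1 nM ONO + RNO and 48.2 ± 2.4 TPM with 0.1 nM ONO. LINC00473 differed by -1.63 (adjusted p = 3.20e-04), ZNF331 by -1.48 (3.51e-05) and PDE4D by -0.89 (6.00e-04). RGS2, NR4A2 and SGK1 differed by -1.55, -1.50 and -1.34. Of the 24 genes, 9 were called under each of the 27 alternative settings: NR4A3, LINC00473, ZNF331, TM4SF1, PDE4D, CHMP1B, BCL7A, PTP4A1 and WDR66. The other 15 lost the call under at least 1. CHMP1B, BCL7A, PTP4A1 and WDR66 are named here after their values were seen. The gene with a higher step on vilanterol was PSRC1, a spindle-associated protein, at 0.34 (adjusted p = 0.0152). The count was 13 without replicate 3 of 0.1 nM ONO, 14 without replicate 1 of vilanterol and 15 without replicate 3 or replicate 4 of vilanterol + RNO.

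Against the step on 1 nM ONO, 5 genes had a lower step on vilanterol (0.0397% called; 44 with the replicate block). These were NR4A3 at -1.53 (limma adjusted p = 0.00578), ZNF331 at -1.11 (0.00909), the vesicle-trafficking GTPase RAB3A at -0.87 (0.0119), TM4SF1 at -0.74 (0.0281) and the phosphatase PTP4A1 at -0.39 (0.00578). ZNF331 and PTP4A1 were called under all 27 alternatives. The count was 3 without replicate 1 of 1 nM ONO, replicate 4 of 1 nM ONO + RNO or replicate 4 of vilanterol, and 9 without replicate 1 of vilanterol + RNO.

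The comparison closest in size of response is with 1 uM ONO, the other agonist concentration labelled as maximal. Here 3 genes had a lower step on vilanterol (0.0238% called; 153 with the replicate block). PLAUR, the urokinase receptor, differed by -0.48 (limma adjusted p = 0.0369), averaging 36.7 ± 0.971 TPM with vilanterol + RNO and 38 ± 1.18 TPM with vilanterol, and 33.2 ± 1.18 TPM with 1 uM ONO + RNO and 24.4 ± 2.92 TPM with 1 uM ONO (SD, n = 4 each). PTP4A1 differed by -0.34 (adjusted p = 0.0369) and LINC01128 by -0.41 (0.0369). These 3 calls depended on single libraries: PLAUR was called in 5, LINC01128 in 4 and PTP4A1 in 3 of the 16 fits that left out 1 library. The count was 0 in 11 of the 16, which were those without replicate 2 or 4 of 1 uM ONO, replicate 1, 2 or 4 of 1 uM ONO + RNO, replicate 1, 3 or 4 of vilanterol and replicate 2, 3 or 4 of vilanterol + RNO. It was 14 without replicate 1 of 1 uM ONO and 10 without replicate 1 of vilanterol + RNO. IL6 was the response gene with the largest step on 1 uM ONO, 1.29 (limma adjusted p = 0.00166), with 55.1, 43.2, 26.3 and 39.4 TPM in 1 uM ONO + RNO libraries and 24.6, 16.2, 9.43 and 15.9 TPM in 1 uM ONO libraries. The lowest of the 4 libraries with RNO was above the highest of those without. The difference of steps for IL6 was -1.42 (limma adjusted p = 0.0987, 0.00339 with the replicate block). TXNIP fell by 0.68 when RNO was added to 1 uM ONO (adjusted p = 0.022). The difference from its step on vilanterol was 0.70. It was not called in the main fit (limma adjusted p = 0.476) but was called with the replicate block (adjusted p = 0.000272).

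**Figure D5:**
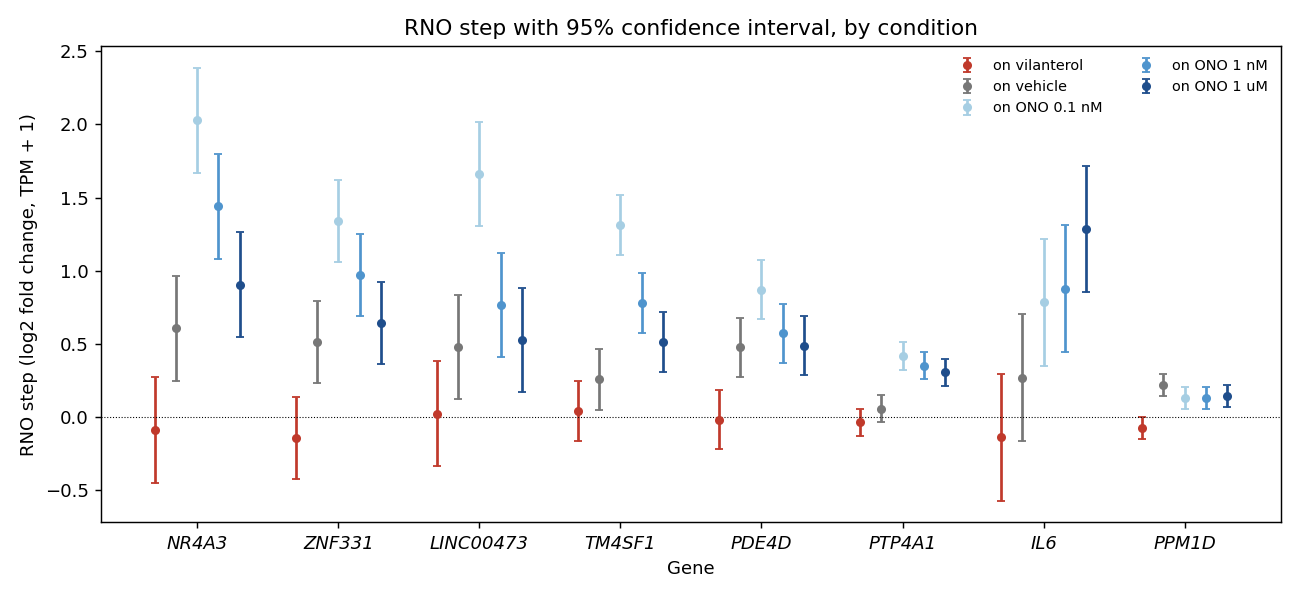
Log2 fold change (TPM + 1) made by adding RNO, with its 95% confidence interval from limma, for 8 genes and 5 conditions. On vilanterol the estimates lie between -0.14 (ZNF331) and 0.040 (TM4SF1), while on 0.1 nM ONO NR4A3 reached 2.03 and on 1 uM ONO IL6 reached 1.29.

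Against the step on vehicle, 1 gene was called, the phosphatase PPM1D (0.00794% of tested genes called). PPM1D, a p53 target that restrains the DNA damage response, had 26.8, 26.5, 24.8 and 26.5 TPM with vilanterol + RNO and 27.4, 27.9, 26.3 and 28.8 TPM with vilanterol, against 17.3, 18, 18.2 and 19.5 TPM with RNO and 15.3, 15.7, 15.5 and 15.6 TPM with vehicle. With RNO it was higher than vehicle in all 4 libraries, and with vilanterol + RNO it was lower than vilanterol at all 4 replicate numbers although the groups overlapped. The difference of steps was -0.29 (standard error 0.053, limma adjusted p = 0.0364). PPM1D kept its call in 4 of the 16 fits that left out 1 library, those without replicate 1 of RNO, replicate 1 or 3 of vilanterol or replicate 1 of vilanterol + RNO. The count of calls was 0 in 10 of the 16, and it was 2 without replicate 1 of RNO or replicate 1 of vilanterol. With the replicate block 31 genes were called, 11 with a lower and 20 with a higher step on vilanterol. With the block and only the groups compared, 3 were called, all with a higher step, so none of the 11 lower steps was called there. Chosen after their values were seen, the 31 included PDE4B at -0.51, PPP1R3C, a glycogen-targeting phosphatase subunit, at -0.61, and FGF9, a growth factor, at -0.39. They also included ADM, the vasodilator peptide adrenomedullin, at 0.65 (blocked adjusted p = 0.0015). ADM had 91.8, 84.7, 92.8 and 82.2 TPM with vilanterol + RNO and 95.9, 77.4, 84.1 and 71.9 TPM with vilanterol, against 88.8, 73.1, 85.6 and 58.6 TPM with RNO and 125, 108, 122 and 91.2 TPM with vehicle. Every library with RNO alone was below the vehicle library of its number, while with vilanterol 3 of 4 libraries with RNO were above.

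No gene was called between vilanterol + RNO and vilanterol, and the groups did not overlap for 1.05% of tested genes. That share was 3.21% for RNO against vehicle and 3.49% to 5.06% for RNO added to ONO. The genes of smallest unadjusted p whose groups did not overlap are given as uncalled. TMEM62 had the smallest, with 4.16, 3.36, 3.9 and 4.0 TPM with vilanterol + RNO and 4.51, 4.63, 4.38 and 4.7 TPM with vilanterol (log2 fold change -0.20, limma adjusted p = 1.00). LINC00963 had 4.45, 5.1, 4.98 and 4.54 TPM with vilanterol + RNO and 5.68, 6.38, 5.23 and 6.13 TPM with vilanterol. Among genes with higher values, SLC25A15, the mitochondrial ornithine carrier, had 6.03, 6.2, 5.92 and 6.6 TPM with vilanterol + RNO and 5.79, 5.46, 5.5 and 5.43 TPM with vilanterol, a log2 fold change of 0.13. ZNF14, a zinc-finger gene, had 2.24, 2.28, 2.25 and 2.21 TPM with vilanterol + RNO and 1.6, 1.65, 1.98 and 1.95 TPM with vilanterol. For these 4 genes the groups did not overlap, but the fitted change did not pass the adjusted threshold. The others of this kind were FLG-AS1, NTHL1, C3orf14, ZNF195, NUDT16L1, C8orf44, AMIGO1 and CHMP7 with higher values, and ANKRD42, ZBTB43, LINC00663, CYB561D1, NAA60, DUSP22, LOC171391 and PACRGL with lower values. The largest estimates belonged to other genes with wide intervals. Of 26 genes with an absolute log2 fold change above 0.5, 15 were small nucleolar or micro RNA entries, and 4 genes exceeded 1. The next 3 were chosen after their values were seen. UQCRBP1, a pseudogene, had 2.14, 3.05, 7.45 and 6.16 TPM with vilanterol + RNO and 0, 1.56, 2.44 and 0 TPM with vilanterol. SNORD52, a small nucleolar RNA, had 129, 149, 73.8 and 144 TPM with vilanterol + RNO and 51.5, 45.2, 75.8 and 55.2 TPM with vilanterol, while its 4 vehicle libraries spanned 72.4 to 128 TPM. In the fit with the replicate block and only these 8 libraries, 1 gene was called, the microRNA entry MIR4664 (log2 fold change 0.62, limma adjusted p = 0.00954). It had 109, 114, 84.4 and 117 TPM with vilanterol + RNO and 65.4, 71.7, 57.8 and 78.9 TPM with vilanterol. Its groups did not overlap, whereas RNO alone spanned 25.8 to 122 TPM and vehicle 14.7 to 59.1 TPM.

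The epithelial label was checked with markers. KRT18 averaged 269 ± 23.5 TPM with vilanterol + RNO and 272 ± 25.8 TPM with vilanterol, and KRT17 averaged 1226 ± 80.4 TPM with vilanterol + RNO and 1323 ± 146 TPM with vilanterol (SD, n = 4 each). KRT17 is also a response gene, raised by vilanterol over vehicle by 2.10 on the log2 scale, so its level here partly reflects treatment. EPCAM and CDH1 lay under 1 TPM in all 8 libraries, while the mesenchymal markers VIM and COL1A1 averaged 1315 and 522 TPM with vilanterol + RNO and 1312 and 535 TPM with vilanterol. The 8 epithelial markers in the table, 6 of them tested, summed to 1809 to 2113 TPM with vilanterol + RNO and 1859 to 2287 TPM with vilanterol. In vehicle cells these markers, KRT17 among them, summed to 1060 to 1244 TPM. The 10 mesenchymal markers, 9 of them tested, summed to 2651 to 2764 TPM with vilanterol + RNO and 2573 to 2845 TPM with vilanterol. Their sum was 2380 to 2870 TPM in vehicle cells. Of the leukocyte markers CD68 alone was tested, and the 2 in the table summed to 12.5 to 14.7 TPM with vilanterol + RNO and 12.2 to 13.5 TPM with vilanterol. The 4 endothelial markers in the table summed to under 1 TPM in each of the 8 libraries. No marker was called between the 2 groups. In bulk RNA fewer cells of a type and less RNA per cell cannot be told apart.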

How the data were processed

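RNA of 40 BEAS-2B libraries was measured by poly(A) RNA sequencing on an Illumina instrument with 2 sequencing kits, per the labels, which do not tie libraries to kits. Per the submitters' processing notes, reads were handled with sleuth, kallisto and bcl2fastq (2.18.0.12), and the human build was GRCh37, also written hg19. Versions of the first 2 tools were not given in the sources used here. For 15788 genes the authors deposited a normalised signal, TPM adjusted between libraries. Column totals lay between 956888 and 1091466 and medians between 8.47 and 9.11 TPM. The highest total and the lowest median were both those of vehicle replicate 3. No counts were analysed, so the depth is unknown.

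Values were transformed to log2(TPM + 1), which understates fold changes of low genes. Genes averaging 1 TPM or more across the 40 libraries were kept, which left 12591 to test. limma 3.58.1 with an intensity trend in R 4.3.3 (data.table, version 1.17.8) fitted 1 mean per group over 40 libraries, with 30 residual degrees of freedom. Benjamini-Hochberg adjustment ran within each of 11 comparisons at 0.05. The step of RNO is the log2 fold change made by adding it, and steps were compared by interaction contrasts. The steps on vilanterol, vehicle and each ONO concentration share no library, whereas comparisons with vehicle share the vehicle libraries.

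Same-numbered vilanterol + RNO and vilanterol libraries deviated together from their group means (correlations 0.54, 0.21, 0.30 and 0.31 over genes), each above 0.1, as in the other pairs of groups, so blocked counts are given beside the results. Named genes were the 10 highest and 10 lowest called without overlap, filled with the smallest p; the same for vilanterol against vehicle; the 5 highest and 5 lowest called step differences; list members, PTGER4 and the PDE4 genes, and 1 further gene that is not reported here. The members and lists were chosen with earlier results of these data known. The model was tested on simulated data with noise drawn independently for each library. The shared deviation of same-numbered libraries was not simulated, so that test does not bear on it. The alternatives covered pseudocounts, filters, scaling, variance model, library weights, the block, the libraries fitted and leaving out each library. Promoter sequences are RefSeq's (GRCh38.p14), and since the authors used an earlier build no other coordinates are printed.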

Additional observations from a re-analysis of the deposited data

Results flagged for a closer look

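Some single libraries stood apart from the other 3 of their group for a gene named here, by a gap test that chance would trip in about 1 of 20 groups. It marked 9 of the 168 groups examined, where chance alone would give 8.4. In vilanterol + RNO cells these were DUSP22 in replicate 3 (8.70 TPM against 9.54 to 9.69 in the others), PPM1D in replicate 3 (24.8 against 26.5 to 26.8), PPP1R3C in replicate 1 (26.3 against 20.6 to 21.3) and CHMP1B in replicate 1 (99 against 82.5 to 84.9). PGBD3 stood apart in replicate 2 of both groups, at 1.10 TPM with vilanterol + RNO and 1.27 TPM with vilanterol. In vilanterol cells the others were NR4A3 in replicate 3 (64.2 against 75.7 to 76.6), CXCL2 in replicate 1 (3.83 against 2.06 to 2.22) and SLC25A15 in replicate 1 (5.79 against 5.43 to 5.5).

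A further set of results is that the step made by RNO differed between vilanterol and another condition by limma's interaction test. Against 0.1 nM ONO the differences on the log2 scale were NR4A3 -2.11, LINC00473 -1.63, RGS2 -1.55, NR4A2 -1.50, ZNF331 -1.48, SGK1 -1.34, TM4SF1 -1.27, PLPP3 -0.93, DUSP1 -0.92, PDE4D -0.89, CD200 -0.88 and ACKR3 -0.74. The rest were PPP1R3C -0.70, KRT17 -0.67, ITPRIP -0.58, ZNF620 -0.55, CHSY1 -0.53, LATS2 -0.53, CHMP1B -0.52, BCL7A -0.50, PTP4A1 -0.45, PPP1R3B -0.45, WDR66 -0.41 and PSRC1 0.34. Against 1 nM ONO they were NR4A3 -1.53, ZNF331 -1.11, RAB3A -0.87, TM4SF1 -0.74 and PTP4A1 -0.39. Against 1 uM ONO they were PLAUR -0.48, LINC01128 -0.41 and PTP4A1 -0.34, and against vehicle PPM1D -0.29. Against 0.1 nM ONO, 15 of the 24 calls were lost under at least 1 of 27 alternatives, most often PPP1R3B, called under 8, and LATS2, called under 10. Against 1 uM ONO and vehicle each call was lost under some.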

How the results depend on the processing

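The count of 0 genes called between vilanterol + RNO and vilanterol held under every alternative run except the replicate block fitted to the 8 libraries alone, which called 1, and it was 0 in each of the 8 fits that left out a library. The number of genes whose interval lay inside 1.5-fold was 12206 to 12239 in those fits. The difference in the 77-gene response level ranged in those fits from -0.060, without replicate 3 of vilanterol, to 0.0094, without replicate 1 of vilanterol, where its sign turned. With equal totals this difference was -0.0049, and with equal medians it was -0.027. Of 1406 alternative values of 75 named genes in this comparison, 1378 moved by less than the spread between replicates, 27 by more, and 1, that of MIR4664, passed the threshold.

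The replicate block raised the other counts: RNO against vehicle to 643, the RNO step on 0.1 nM, 1 nM and 1 uM ONO to 325, 151 and 464, the step differences against vehicle, 0.1 nM, 1 nM and 1 uM ONO to 31, 104, 44 and 153, and vilanterol and vilanterol + RNO against vehicle to 3931 and 4029. With the block and only the groups compared these were 6, 190, 61, 278, 3, 126, 42, 238, 1104 and 1097, in the same order (the 3 against vehicle all with a higher step on vilanterol), and with only the groups compared and no block RNO against vehicle gave 0, the 3 ONO steps 47, 9 and 24, the step difference against vehicle 0 and against 1 uM ONO 9, and vilanterol and vilanterol + RNO against vehicle 912 and 960. Library weights gave 166, 80 and 174 for the ONO steps and 8 and 10 for the differences against 1 nM and 1 uM ONO. A pseudocount of 5 gave 15 and 12 for the differences against 0.1 nM and 1 uM ONO, and 0.1 gave 0 for the last, as did no filter. Equal totals gave 14 for RNO against vehicle and 0 for the differences against vehicle and 1 uM ONO, and equal medians gave 0 against vehicle. The causes were not tested.

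Leaving out 1 library gave 8 to 57 for RNO against vehicle (57 without vehicle replicate 1, 13 without vehicle replicate 3, 17 without RNO replicate 2, 8 without RNO replicate 4). It gave 60 (without ONO replicate 3) to 84 for the step on 0.1 nM ONO and 11 to 48 for that on 1 nM ONO (18, 14 and 11 without ONO replicates 1, 3 and 4; 48, 12, 15 and 11 without ONO + RNO replicates 1 to 4). It gave 37 to 77 for that on 1 uM ONO (37 and 39 without ONO replicates 2 and 4; 45 and 47 without ONO + RNO replicates 1 and 2), 0 to 2, 13 to 31, 3 to 9 and 0 to 14 for the step differences, and 1796 to 2702 and 1851 to 2769 for vilanterol and vilanterol + RNO against vehicle. With 4 libraries a group, no counts and 1 time point, smaller changes than the intervals given were not detectable, and a missing call does not show equality.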

Other observations

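Interferon-stimulated genes, looked at after their values were seen, varied between libraries of 1 group by more than between groups. MX1, a GTPase that blocks influenza viruses, had 1.41, 3.43, 8.37 and 1.8 TPM in vilanterol + RNO libraries and 2.69, 8.85, 6.05 and 7.93 TPM in vilanterol libraries, against 1.92, 9.59, 1.1 and 10.9 TPM in vehicle libraries. The high library was replicate 3 with vilanterol + RNO and replicates 2 and 4 with vehicle. OAS2, an activator of RNase L, had 0.311, 0.951, 2.88 and 0.365 TPM with vilanterol + RNO and 0.755, 3.86, 1.89 and 2.82 TPM with vilanterol. ISG15, a ubiquitin-like modifier, had 30.6, 41.1, 69.3 and 37.2 TPM with vilanterol + RNO and 34.4, 60.2, 57.3 and 74 TPM with vilanterol. MX1 and OAS2 were highest in the same replicate within each vilanterol group. Neither was called, with log2 fold changes of -0.76 for MX1 and -0.70 for OAS2.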
